A study of Homo sapiens with 4 samples.

Results

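RNA of cells given siRNAs against YAP and TAZ was compared with RNA of control cells while both were stimulated with 8Br-cAMP, in KGN, a human cell line derived from a tumour of granulosa cells. YAP1 encodes YAP and WWTR1 encodes TAZ. The control culture (siNC+8Br-cAMP) had received 10 nM of the control siRNA, and the knockdown culture (siYT+8Br-cAMP) 5 nM each of the siRNAs against YAP and TAZ. Both then stood for 48 h before the medium was replaced by medium with 0.5 mM 8Br-cAMP, a cell-permeable relative of cyclic AMP, for 24 h. A second pair of cultures (siNC and siYT) received the same siRNAs and fresh medium without 8Br-cAMP. Total RNA of each of the 4 conditions was hybridised to 1 Clariom S Human array, so no group had a replicate and no difference below could be set against the spread between cultures. Both siRNAs were given together, so the share of either protein cannot be told apart, and the sources used here do not give the siRNA sequences. The comparison covers every probe set that names exactly 1 gene, which gave 17687 genes from 17709 of the 24351 probe sets. All 4 arrays come from 1 cell line.

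YAP and TAZ are transcriptional coactivators that do not bind DNA themselves and reach their target genes through the TEAD transcription factors. The Hippo kinases LATS1 and LATS2 phosphorylate them and keep them out of the nucleus, while spread cell shape, stiff matrix and low cell density let them in. In the ovarian follicle, granulosa cells proliferate while the follicle grows and make estradiol and later progesterone under gonadotropins, whose receptors signal through cyclic AMP, protein kinase A and CREB. 8Br-cAMP enters at the level of that messenger and does not need the receptors.

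Values are the deposited log2 signals, and a difference is the knockdown array minus the control array, both with 8Br-cAMP, unless stated. A gene was called when the difference was at least 1, which is 2-fold, and the higher of the 2 values reached 6.22, the median over the 4 arrays of all values with a gene name. Of the 17687 genes, 9350 passed that level filter. Among all 17687 genes, 977 were called higher after knockdown (5.52%) and 1051 lower (5.94%). A difference of at least 2 was reached by 149 of the higher and 297 of the lower genes, and one of at least 4 by 8 and 38. The median difference was 0.06 over all genes and 0.00 over those past the filter, where the lowest 5% of differences lay under -1.56 and the highest 5% over 1.38. The balance of directions rested on the scaling of the arrays. The 2197 positive control probe sets differed by a median of -0.35 between the knockdown and the control array. With the arrays centred on those probe sets the median of all genes was 0.43, with 1953 genes called higher and 567 lower, so that 77.5% of calls were higher in place of 48.2%. The largest values were also bounded by background. In 426 of the 1051 lower genes and 234 of the 977 higher genes, the lower of the 2 values did not exceed the 95th percentile of the negative control probe sets of its array, which was 6.53 on the control and 6.98 on the knockdown array. For such genes the fold is given below as at least the distance to that percentile.

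**Figure D1:**
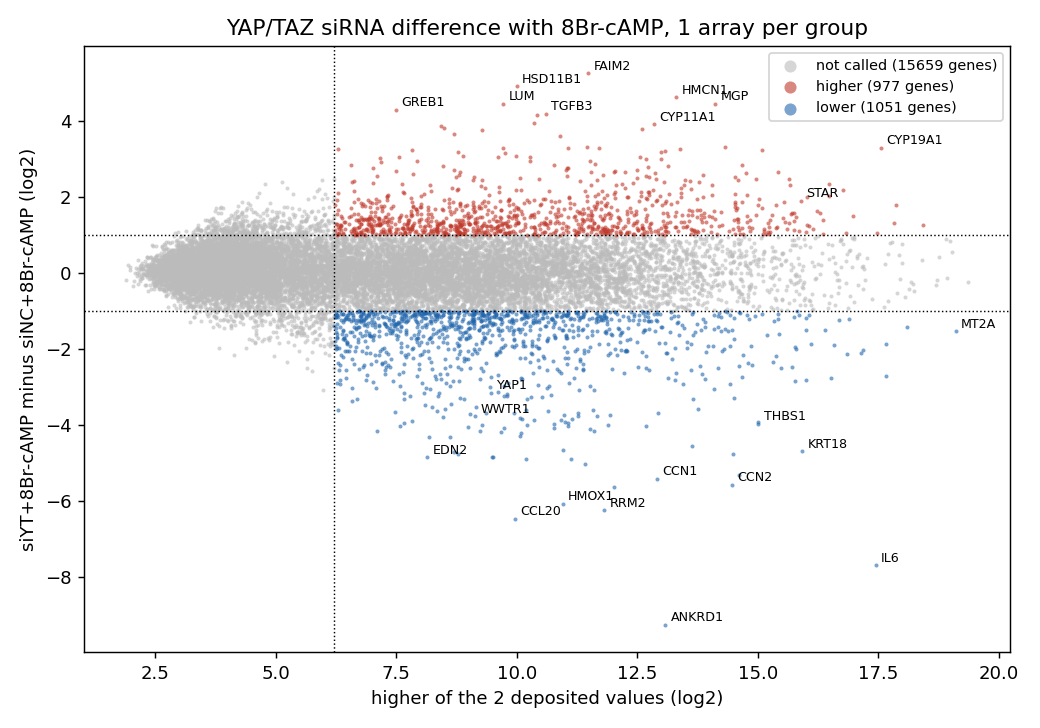
Difference between the knockdown and the control array with 8Br-cAMP (vertical axis, log2) against the higher of the 2 deposited values (horizontal axis, log2), 1 point per gene. Red points are the 977 genes called higher and blue points the 1051 called lower; dotted lines mark differences of 1 and -1 and the level filter of 6.22. The lower branch reaches further from 0 than the higher branch, to -9.27 for ANKRD1 against 5.25 for FAIM2.

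The targeted genes were lower where the labels put the knockdown. YAP1 was at 9.46 on the control array and 6.29 on the knockdown array, and 9.48 in siNC and 6.80 in siYT without 8Br-cAMP. WWTR1 was at 9.13 on the control array and 5.35 on the knockdown array, and 7.58 in siNC and 5.45 in siYT. In both media the value after siYT was the lower one for both genes. With 8Br-cAMP YAP1 was at least 5.61-fold lower and WWTR1 at least 4.46-fold lower, since both knockdown values lay within the range of the negative controls. The granulosa origin of the line showed in some markers only. CYP19A1, GATA4, WT1, LHX9 and FSHR reached the level filter on at least 1 of the 4 arrays, while FOXL2, INHA, AMHR2, HSD17B1 and NR5A2 stayed under it on all. Of 8 epithelial markers KRT7 alone reached the filter on either array of the stimulated pair, at 11.21 and 10.64. Of 9 endothelial markers ERG alone reached it on the control array (6.36, within the range of the negative controls) and none on the knockdown array. Of 8 immune markers CD68 and TYROBP reached it, TYROBP with both values within the range of the negative controls. PTPRC, the pan-leukocyte antigen, was at 4.12 on the control array and 4.02 on the knockdown array.

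Genes that YAP and TAZ are known to switch on were among those with the lowest differences. A signature of YAP/TAZ targets had 19 measured genes, of which 1 was called higher, 8 lower and 10 were not called, against 5.94% lower over all genes, and their median difference was -0.95 against 0.06. Without 8Br-cAMP 1 higher and 11 lower were called, with a median of -1.18. ANKRD1, a stress-responsive ankyrin repeat protein of the nucleus and sarcomere, was at 13.08 on the control array and 3.81 on the knockdown array, and 14.42 in siNC and 8.28 in siYT. Its deposited difference was the lowest of all genes, but its knockdown value lay within the range of the negative controls, so it was at least 68.9-fold lower and its rank is not settled. CCN2, a secreted matricellular protein also called CTGF, was at 14.47 on the control array and 8.88 on the knockdown array, and 15.67 in siNC and 10.42 in siYT. CCN1, its relative CYR61, was at 12.92 on the control array and 7.49 on the knockdown array, and 14.10 in siNC and 9.53 in siYT. CCN2 was 47.8-fold lower and CCN1 43-fold lower. All 3 were lower after knockdown in both media, and for each the 2 control values were above the 2 knockdown values. IGFBP3, which binds insulin-like growth factors, was at 15.78 on the control array and 12.91 on the knockdown array, 7.28-fold lower, and differed by -1.05 without 8Br-cAMP. F3, tissue factor, differed by -2.12 and GADD45B, a stress-induced growth arrest protein, by -1.85. The remaining called members were PTPN14 (-1.63), a phosphatase that binds YAP, LATS2 (-1.37), the Hippo kinase, and DOCK5 (1.18), an exchange factor for Rac and the only member called higher. Of the members that were not called, AXL, a receptor tyrosine kinase, differed by -0.95, the Hippo-responsive kinase NUAK2 by -0.95, and GADD45A by -0.07. GADD45A stood at 9.09 on the control array with 8Br-cAMP and 11.89 without, and differed by -3.20 in the unstimulated pair.

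The start sites of ANKRD1 and CCN2 carry the TEAD motif and show how the element lies in a strong target. The 250 bases before the start site are printed 5′ to 3′ on the strand of the gene, from RefSeq on GRCh38.p14, with the TEAD motif GGAATG in capitals; no match in these windows was on the other strand.
ANKRD1: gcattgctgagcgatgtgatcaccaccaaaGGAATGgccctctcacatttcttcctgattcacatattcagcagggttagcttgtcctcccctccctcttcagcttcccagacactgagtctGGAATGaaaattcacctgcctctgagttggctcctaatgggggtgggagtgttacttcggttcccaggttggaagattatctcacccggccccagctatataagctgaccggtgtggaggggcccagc
CCN2: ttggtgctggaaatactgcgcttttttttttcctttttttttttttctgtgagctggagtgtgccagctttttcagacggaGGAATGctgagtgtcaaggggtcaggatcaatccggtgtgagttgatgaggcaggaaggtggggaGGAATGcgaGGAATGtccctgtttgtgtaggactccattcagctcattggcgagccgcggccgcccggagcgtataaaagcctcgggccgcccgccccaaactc
The ANKRD1 window (chr10:90921088-90921337, minus strand) held 2 copies, which began 220 and 128 bases before the start. The CCN2 window (chr6:131951373-131951622, minus strand) held 3 copies, which began 169, 104 and 95 bases before it. For all shares the search covered both strands of 300 bases, 250 before and 50 after the start, in the 14250 of 17687 genes that the promoter table held. GGAATG was found in 6 of 14 promoters of the target signature (42.9%) and in 11.6% of all 14250. It was found in 11.9% of promoters of genes called lower and 12.5% of those called higher. Over all called genes the motif near the start was thus about as frequent in either direction as in promoters at large, and sequence farther away was not searched.

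Some of the partners and upstream regulators of YAP and TAZ were called, in both directions. Over all genes 11.5% were called in either direction. Of the 8 TEAD and VGLL genes 4 passed the level filter, and 1 was called higher, 1 lower and 6 were not called. VGLL3, a cofactor of TEAD proteins, was at 10.31 on the control array and 8.42 on the knockdown array, and 10.82 in siNC and 7.999 in siYT. VGLL4, a cofactor that competes with YAP for TEAD, was at 6.72 on the control array and 8.15 on the knockdown array. VGLL3 was thus lower and VGLL4 higher after knockdown. TEAD1 differed by -0.91 and TEAD3 by -0.22; TEAD4 differed by -1.42 but lay under the level filter on both arrays, and levels of different probe sets are not a measure of relative abundance. Of the 18 Hippo kinases and upstream regulators, 1 was called higher, 3 lower and 14 were not called, with a median of -0.13 that became 0.24 after centring on the positive controls. The LIM protein AJUBA, which restrains LATS kinases, was at 8.62 on the control array and 5.63 on the knockdown array. FAT4, an atypical cadherin, differed by -1.67 and WWC1, the scaffold KIBRA, by -1.02, whereas the cadherin FAT1 differed by 1.46. The core kinases LATS1 (0.42), STK3 (0.10) and STK4 (-0.25) were not called, while LATS2, counted above with the target signature, was called lower (-1.37).

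Actin-linked genes, which YAP/TAZ and the serum response factor SRF control together, were lower in part. Of 21 members, 0 were called higher, 7 lower and 14 were not called, with a median of -0.60; without 8Br-cAMP 0 higher and 5 lower were called with a median of -0.11. ANLN, the anillin of the contractile ring, was at 14.62 on the control array and 9.28 on the knockdown array. The formin DIAPH3 was at 10.98 on the control array and 7.24 on the knockdown array. Both also belong to cytokinesis, so they overlap with the division genes described below. The smooth muscle genes TAGLN (-2.91) and CNN1 (-2.22) and the focal adhesion protein ZYX (-1.71) were called lower, as were ACTG1, cytoplasmic gamma actin (-1.51), and the tropomyosin TPM1 (-1.02). SRF itself differed by -0.10, ACTB by -0.60, VCL by 0.15 and MYH9 by 0.01, none of them called. Of 20 focal adhesion and integrin genes, 1 was called higher, 1 lower and 18 were not called, with a median of -0.16 that became 0.22 after centring on the positive controls. The called members were CAV1, the caveolin (-1.13), and the integrin ITGB5 (1.05).

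Every measured gene of the mitosis list was lower after knockdown in stimulated cells. All 30 were called lower, with differences from -5.03 to -1.98 and a median of -3.80; over all genes 5.94% were called lower. On the control array all 30 reached the level filter and on the knockdown array 14 did, of which 9 exceeded the negative control percentile. With values under that percentile raised to it, 24 were called lower and the median was -3.12. After centring on the positive controls 28 were called lower. The spindle protein DLGAP5 was at 11.42 on the control array and 6.39 on the knockdown array, and 11.28 in siNC and 7.27 in siYT. The spindle checkpoint kinase TTK was at 11.13 on the control array and 6.22 on the knockdown array, and 11.63 in siNC and 7.34 in siYT. Their knockdown values lay within the range of the negative controls, which makes DLGAP5 at least 21.7-fold lower and TTK at least 17.8-fold lower. CCNB1, cyclin B1, was at 10.95 on the control array and 6.30 on the knockdown array, and 11.12 in siNC and 7.85 in siYT. CDK1, its kinase partner, was at 10.08 on the control array and 5.79 on the knockdown array, and 10.48 in siNC and 6.82 in siYT. Bounded in the same way, CCNB1 was at least 15.75-fold and CDK1 at least 8.59-fold lower. The cyclins CCNA2 (-4.56) and CCNB2 (-4.20) had deposited differences of like size, and CCNB2 was at least 6.48-fold lower. On every one of these 6 genes both knockdown values lay under both control values. Of the regulators above them, FOXM1, the transcription factor of the G2 and M phases, was at 11.60 on the control array and 7.43 on the knockdown array, 18.1-fold lower. MKI67, the proliferation antigen, was at 11.07 on the control array and 7.02 on the knockdown array. MYBL2, the transcription factor B-Myb that binds the MuvB complex, was at 8.71 on the control array and 3.98 on the knockdown array, at least 3.33-fold lower. Further mitotic genes stood among the 20 lowest by deposited difference: the kinase PBK (-4.86) and SHCBP1 (-4.91), a midbody protein. In a bulk RNA sample, fewer dividing cells and less of each transcript per dividing cell cannot be told apart.

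DNA replication genes were lower as well. Of 26 members, 0 were called higher, 21 lower and 5 were not called, and all 26 differences were below 0, with a median of -2.19. Where values under the negative control percentile were raised to it, 13 were called lower and the median was -0.90. RRM2, the regulated subunit of ribonucleotide reductase, was at 11.82 on the control array and 5.56 on the knockdown array, and 12.79 in siNC and 8.21 in siYT. TYMS, thymidylate synthase, was at 12.02 on the control array and 6.38 on the knockdown array, and 13.35 in siNC and 9.02 in siYT. RRM2 was at least 28.7-fold lower and TYMS at least 33.1-fold lower. CDC6, which loads the replicative helicase, was at least 4.78-fold lower and CDC45, a part of that helicase, at least 1.62-fold lower, both with knockdown values within the range of the negative controls. TK1, the thymidine kinase, was above it on both arrays and 14.6-fold lower. The helicase subunits MCM3 (-2.50), MCM4 (-2.59), MCM5 (-2.66), MCM6 (-1.73) and MCM7 (-2.21) were called and MCM2 (-0.93) was not; of these 6, MCM7 alone had a knockdown value above the negative control percentile. PCNA, the sliding clamp, was at 12.28 on the control array and 10.22 on the knockdown array, well above background on both, and 4.16-fold lower.

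Of 20 G1 cyclins, CDKs and E2F factors, 0 were called higher, 9 lower and 11 were not called, with a median of -1.25 that became -0.45 where low values were raised to the negative control percentile. Besides MYBL2 these included CCNE2, a cyclin E (7.11 and 2.93), E2F8, a repressor E2F (-3.31), CDK6 (-2.25), CDK2 (-1.77) and the growth factor-responsive transcription factor MYC (10.16 and 7.93). CCND1, cyclin D1, was at 11.33 and 11.12, a difference of -0.21. Among 15 DNA repair genes, 0 were called higher, 7 lower and 8 were not called; with low values raised in the same way 4 were called lower. EXO1, an exonuclease of mismatch repair, was at 8.17 on the control array and 3.84 on the knockdown array. XRCC2 (-2.90), POLQ (-2.77) and BRCA1 (-2.37), which act in the repair of double-strand breaks, CHEK1 (-2.68), the replication checkpoint kinase, and FANCI (-2.40), of the Fanconi pathway, were called lower too, whereas ATM differed by 0.96. POLQ, FANCI and BRCA1 stood between 6.29 and 6.62 on the control array, no higher than its negative control percentile of 6.53 by more than 0.1. Knockdown values within the range of the negative controls bounded further genes, among them EXO1 at least 2.29-fold lower, XRCC2 at least 2.07-fold lower, E2F8 at least 1.61-fold lower and CCNE2 at least 1.1-fold lower. The sizes printed for these 7 genes therefore depend on the background. Of 17 CDK inhibitors and p53 targets, which hold cells back, 0 were called higher, 3 lower and 14 were not called; without 8Br-cAMP 4 higher and 2 lower were called with a median of 0.42. CDKN1A, the inhibitor p21, was at 13.74 on the control array and 13.58 on the knockdown array and CDKN1B, p27, at 9.83 and 9.996. PLK2, a p53-responsive kinase, was at 13.23 on the control array and 10.94 on the knockdown array, and BAX (-1.07) and SESN1 (-1.03) were called lower. The median of that list, -0.23, became 0.14 after centring on the positive controls, with 2 called higher and 1 lower.

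Promoters of these genes shared motifs of the cell cycle. CDK1 and MCM3 are printed to show the arrangement in a mitosis and in a replication gene, 250 bases before the start on the strand of the gene, from RefSeq on GRCh38.p14. In CDK1 capitals mark the cell cycle homology region motif, CHR, read as TTTGAA, and the CCAAT box, read as CCAAT. In MCM3 they mark the E2F motif, read as TTCCCGC or TTGGCGC, or its reverse complement.
CDK1: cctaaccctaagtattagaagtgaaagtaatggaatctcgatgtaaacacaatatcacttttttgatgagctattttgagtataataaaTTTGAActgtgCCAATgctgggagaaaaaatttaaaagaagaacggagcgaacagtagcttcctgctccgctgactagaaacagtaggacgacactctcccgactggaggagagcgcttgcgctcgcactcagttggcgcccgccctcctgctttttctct
MCM3: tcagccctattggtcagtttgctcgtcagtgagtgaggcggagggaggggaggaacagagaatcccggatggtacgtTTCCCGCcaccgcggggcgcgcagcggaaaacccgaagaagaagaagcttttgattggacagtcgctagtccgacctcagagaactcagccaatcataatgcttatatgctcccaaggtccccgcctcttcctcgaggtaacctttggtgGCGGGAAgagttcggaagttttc
In CDK1 (chr10:60778081-60778330, plus strand) the TTTGAA match began 161 and the CCAAT match 150 bases before the start. Whether this TTTGAA match is a working CHR was not tested. In MCM3 (chr6:52284743-52284992, minus strand) the E2F matches began 173 and 23 bases before the start, the second on the other strand. The CHR was found in 19 of 25 promoters of mitosis genes (76%) and in 12% of all promoters. The CCAAT box was found in 21 of 25 of them and in 36.4% of all. The E2F motif was found in 18 of 24 promoters of replication genes and in 12.4% of all. Over all genes called lower, 18.4% of promoters held the CHR and 18.3% the E2F motif, against 9.45% and 13.7% of those called higher. A CCAAT box on the other strand and the E2F motif TTGGCGC can share bases, and the match of a motif does not show that a factor was bound.

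In stimulated cells the steroid pathway stood higher after knockdown at several of its steps. Of 25 steroid synthesis genes, 8 were called higher, 2 lower and 15 were not called, against 5.52% higher over all genes; the median was 0.26. STAR, which brings cholesterol into mitochondria, was at 14.01 on the control array and 15.90 on the knockdown array, and 9.84 in siNC and 10.38 in siYT. The knockdown difference was 1.89 (3.71-fold higher) with 8Br-cAMP and 0.54 without. CYP11A1, which cuts the side chain of cholesterol to make pregnenolone, was at 8.94 on the control array and 12.84 on the knockdown array, and 4.25 in siNC and 8.82 in siYT. With 8Br-cAMP both values were above background, and the difference was 15-fold higher. HSD3B2, the next enzyme on the way to progesterone, was at 8.99 on the control array and 10.12 on the knockdown array, 2.19-fold higher. CYP19A1, the aromatase that makes estradiol, was at 14.26 on the control array and 17.56 on the knockdown array, and 5.04 in siNC and 14.26 in siYT. The order of the 4 arrays was siNC, then siYT and siNC+8Br-cAMP at nearly the same value, then siYT+8Br-cAMP, and the difference with 8Br-cAMP was 9.81-fold higher. HSD11B1, which activates cortisone to cortisol, was at 5.09 on the control array and 9.997 on the knockdown array, and 5.38 in siNC and 9.27 in siYT. It was low on both control arrays and high on both knockdown arrays, at least 11-fold higher in stimulated cells. Other steroid enzymes were called higher: HSD17B4 (1.10), HSD17B7 (1.12) and HSD17B2 (1.14), which oxidises estradiol to estrone and reached 6.24, just past the level filter. Between the control arrays, 8Br-cAMP went with higher values of STAR (4.16), CYP11A1 (4.69), HSD3B2 (4.82), CYP19A1 (9.23) and HSD17B4 (1.04). For HSD11B1 (-0.29), HSD17B7 (-0.03) and HSD17B2 (-1.45) it did not. AKR1C1, which inactivates progesterone, was at 11.74 on the control array and 10.49 on the knockdown array, lower after knockdown, and its relatives AKR1C2 (-0.87) and AKR1C3 (-0.80) were below 0 and not called. CYB5A, an electron donor of steroid enzymes, differed by -1.09. CYP17A1, the androgen-forming enzyme of theca cells, stayed under the level filter at 4.70 and 4.91.

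The regulators listed for these enzymes were not called, and 10 of the 16 passed the level filter. Among 16 steroidogenic regulators, 0 were called higher, 0 lower and 16 were not called, with a median of 0.10; after centring on the positive controls 2 were called higher. NR5A1, also called SF-1, was at 5.80 and 6.35, both within the range of the negative controls. GATA4 was at 10.79 and 11.65, and FOXO1 at 6.70 and 6.50. The orphan receptors NR4A1 (1.86) and NR4A2 (2.93) are not on that list and were called higher, as described below. Of 19 cholesterol genes, 3 were called higher, 0 lower and 16 were not called, with a median of 0.42. The sterol reductase TM7SF2 (1.64), the sterol oxidase MSMO1 (1.56) and HMGCS1 (1.02), the synthase before the rate-limiting reductase, were higher, while the lipoprotein receptor SCARB1 differed by 0.66 and SREBF2, the regulator of the pathway, by 0.70. In the stimulated pair, CREB3L3, a membrane-bound transcription factor of lipid genes, was at 6.26 on the control array and 10.42 on the knockdown array, and PDK4, a kinase that slows glucose oxidation, at 8.14 and 11.45; both were among the 20 highest genes.

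Granulosa and ovulation genes differed in both directions. Of 22 genes of granulosa identity and gonadotropin response, 5 were called higher, 3 lower and 14 were not called, with a median of 0.23. GJA1, the gap junction protein connexin 43, was at 13.36 on the control array and 15.67 on the knockdown array, and 10.86 in siNC and 14.50 in siYT. It was higher after knockdown in both media, 4.96-fold higher in stimulated cells. FSHR, the FSH receptor, was at 4.23 on the control array and 6.63 on the knockdown array; its knockdown value was within the range of the negative controls. INHBA, the activin subunit, was at 13.39 on the control array and 15.08 on the knockdown array, 3.23-fold higher, and differed by -0.27 without 8Br-cAMP. Its antagonist FST, follistatin, was at 11.95 on the control array and 10.33 on the knockdown array, 3.08-fold lower. In stimulated cells the ligand was thus higher and its antagonist lower. KITLG, which signals to the oocyte, differed by -1.29, and the insulin receptor substrate IRS1 by -1.10. BMPR1B, a BMP receptor, differed by 1.25. LHCGR, the LH receptor, was at 3.99 and 4.05, under the filter. Of 23 ovulation and cumulus expansion genes, 5 were called higher, 2 lower and 16 were not called; the median of -0.35 became 0.03 after centring on the positive controls. EDN2, an endothelin of the ovulating follicle, was at 8.15 on the control array and 3.28 on the knockdown array, and 3.84 in siNC and 3.16 in siYT. It was at least 2.25-fold lower in stimulated cells, while both unstimulated values were within background. PTX3, a pentraxin that stabilises the cumulus matrix, was at 11.07 on the control array and 7.11 on the knockdown array, 15.6-fold lower. Other components of that matrix were higher, among them VCAN, versican (11.74 and 14.05), and HAS2, which makes hyaluronan (6.30 and 7.93). PTGS2, the inducible cyclooxygenase, was at 4.27 on the control array and 7.19 on the knockdown array, at least 1.57-fold higher, and PTGIS, prostacyclin synthase, at 13.08 on the control array and 11.23 on the knockdown array, 3.61-fold lower. The progesterone receptor PGR (0.16) and ADAMTS1 (-0.77), a protease of ovulation, were not called. The protease CTSL (1.93) and the transcription factor RUNX1 (1.02) were called higher.

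Genes that answer to cyclic AMP were not uniformly higher. Of 24 members, 5 were called higher, 1 lower and 18 were not called, with a median of 0.41. The orphan receptors NR4A2 (7.35 and 10.28) and NR4A1 (6.81 and 8.67) were higher, but NR4A3 differed by 0.41. The phosphodiesterases PDE7B (2.13) and PDE4B (1.81), which degrade cyclic AMP, were higher, and PDE4D differed by 0.55. PPARGC1A, the coactivator PGC-1alpha, was at 10.14 on the control array and 13.39 on the knockdown array, 9.52-fold higher. FOS (0.35), SIK1 (0.32), SGK1 (0.15) and DUSP1 (0.19) were not called, and CITED2, a CBP-binding regulator, was lower (-1.63). Of 20 adenylyl cyclases, PKA subunits and anchoring proteins, 14 passed the level filter. Of the 20, 1 was called higher, 0 lower and 19 were not called, against 5.52% higher and 5.94% lower over all genes. PRKACA, the PKA catalytic subunit, was the member called (1.04). The median of 0.01 turned its sign under quantile normalization and cyclic loess. After centring on the positive controls it was 0.38, with 3 called higher. The full cyclic AMP response element was found in 3 of 20 promoters of the responsive genes and in 2.62% of all, searched as TGACG followed by TCA. Of 13 glucocorticoid response genes, 1 was called higher, 3 lower and 9 were not called. The member called higher was PDK4 (3.31). Those lower were ERRFI1, an inhibitor of the EGF receptor (-2.82), and the metallothioneins MT1X (-2.13) and MT2A (-1.54). TSC22D3 and ZBTB16, which glucocorticoids induce, differed by 0.21 and 0.40, with values within the range of the negative controls on both arrays.

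**Figure D2:**
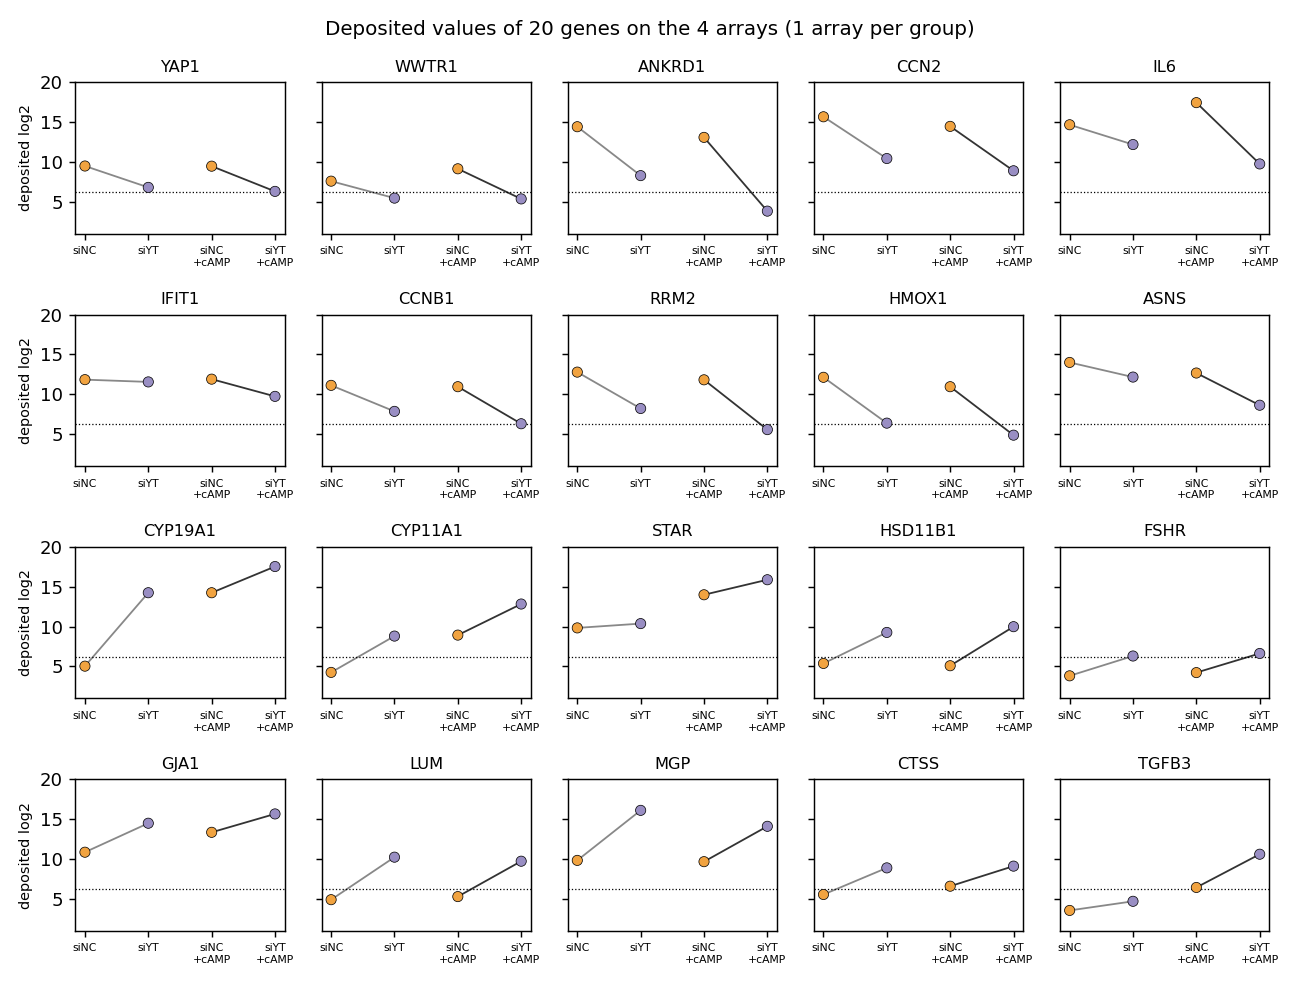
Deposited log2 values of 20 genes on each of the 4 arrays, 1 point per array; orange points are control siRNA, purple points YAP/TAZ siRNA, lines join the 2 arrays of a medium and the dotted line is the level filter of 6.22. IL6 was highest on the stimulated control array and lowest on the stimulated knockdown array, while CYP19A1 and STAR were highest on the stimulated knockdown array.

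Several secreted inflammatory mediators were high in stimulated control cells and far lower after knockdown. Of 23 cytokine and chemokine genes, 1 was called higher, 6 lower and 16 were not called, with a median of -0.77. IL6 was at 17.45 on the control array and 9.75 on the knockdown array, and 14.67 in siNC and 12.18 in siYT. It was 208-fold lower in stimulated cells and remained above background. CCL20, a chemokine of lymphocytes and dendritic cells, was at 9.97 on the control array and 3.49 on the knockdown array, and 9.03 in siNC and 6.22 in siYT. CXCL8, the neutrophil chemokine interleukin 8, was at 14.48 on the control array and 9.72 on the knockdown array, and 15.34 in siNC and 13.04 in siYT. CCL20 was at least 7.96-fold lower and CXCL8 27.2-fold lower. CXCL1 (-2.98), IL11 (-1.62) and IL1B (-1.35) were also lower. TNFAIP3, an inhibitor of NF-kB signalling, was the member called higher (1.04), and the NF-kB genes NFKB1 (-0.81) and NFKBIA (-0.71) and the adhesion molecule ICAM1 (-0.11) were not called.

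Interferon-stimulated genes were mostly lower after knockdown in stimulated cells. Of 29 members, 3 were called higher, 15 lower and 11 were not called, with a median of -1.17; without 8Br-cAMP 6 higher and 3 lower were called with a median of 0.04. IFIT3, an antiviral RNA-binding protein, was at 10.92 on the control array and 8.28 on the knockdown array, and 11.61 in siNC and 10.56 in siYT. IFIT1 was at 11.90 on the control array and 9.74 on the knockdown array, and 11.84 in siNC and 11.55 in siYT. MX1, a GTPase that traps viral ribonucleoproteins, was at 12.29 on the control array and 10.22 on the knockdown array, and 12.78 in siNC and 11.98 in siYT. In all 3 genes the stimulated knockdown array held the lowest of the 4 values. OAS3 (-2.36), OAS2 (-2.05) and OAS1 (-1.97), sensors of double-stranded RNA, IRF1 (-2.07), a transcription factor of the response, and ISG15 (-1.17), a ubiquitin-like protein, were lower too. BST2, the virus tether tetherin, went the other way at 6.24 and 8.81, as did GBP2, a guanylate-binding protein (8.42 and 11.70), and IFI27 (1.54). Those 3 were higher after knockdown in the unstimulated pair as well, by 3.29, 4.06 and 1.34. Opposite differences occurred in genes with the same element. The promoters of IFIT3, lower, and BST2, higher, are printed from RefSeq on GRCh38.p14 as the 250 bases before the start, with the interferon-stimulated response element in capitals, searched on both strands as TTTC, any pair of bases and TTTC again.
IFIT3: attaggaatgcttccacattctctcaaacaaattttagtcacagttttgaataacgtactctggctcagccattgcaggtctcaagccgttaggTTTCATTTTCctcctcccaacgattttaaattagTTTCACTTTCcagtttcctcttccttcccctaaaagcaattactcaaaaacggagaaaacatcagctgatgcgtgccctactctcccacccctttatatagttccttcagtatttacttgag
BST2: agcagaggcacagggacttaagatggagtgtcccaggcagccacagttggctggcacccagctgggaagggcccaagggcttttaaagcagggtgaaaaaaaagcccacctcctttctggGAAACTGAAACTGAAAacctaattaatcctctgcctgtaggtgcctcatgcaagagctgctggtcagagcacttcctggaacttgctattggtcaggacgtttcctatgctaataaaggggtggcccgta
The element began 156 and 122 bases before the start of IFIT3 (chr10:89327747-89327996, plus strand). In BST2 (chr19:17405631-17405880, minus strand) it began 130 and 124 bases before the start, on the other strand, as overlapping matches. It was found in 15 of 22 promoters of the list and in 3.11% of all promoters, with 3.69% among genes called lower and 4.16% among those called higher.

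Complement genes showed the opposite direction. Of 23 complement and coagulation genes, 9 were called higher, 2 lower and 12 were not called, with a median of 0.91. CFB, factor B of the alternative pathway, was at 11.41 on the control array and 13.79 on the knockdown array, and C1S, a protease of the classical pathway, at 11.41 on the control array and 13.62 on the knockdown array. CFB was 5.2-fold higher and C1S 4.64-fold higher. C7, of the membrane attack complex, reached 6.30 from 3.05, and CFI, factor I, 7.01 from 4.66, values close to the negative control percentile. C3, the central component, differed by 1.20, and the coagulation regulators PROS1 (1.79) and TFPI (1.15) were also higher. On the fibrinolytic side PLAU, the urokinase, was at 10.70 on the control array and 7.47 on the knockdown array, 9.38-fold lower, and it was lower in the unstimulated pair too (-3.997). All 9 members called higher and both called lower were called the same way without 8Br-cAMP.

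Extracellular matrix genes included several of the highest genes. Of 28 small leucine-rich proteoglycans and matrix glycoproteins, 10 were called higher, 2 lower and 16 were not called, with a median of 0.72. HMCN1, hemicentin of basement membranes, was at 8.70 on the control array and 13.31 on the knockdown array, and 7.86 in siNC and 13.63 in siYT. MGP, an inhibitor of calcification, was at 9.67 on the control array and 14.11 on the knockdown array, and 9.83 in siNC and 16.12 in siYT. LUM, the collagen-binding lumican, was at 5.28 on the control array and 9.73 on the knockdown array, and 4.89 in siNC and 10.23 in siYT. In these 3 genes both knockdown values exceeded both control values. HMCN1 was 24.5-fold higher, MGP 21.8-fold higher and LUM at least 9.14-fold higher. DCN, decorin, was at 4.56 on the control array and 8.43 on the knockdown array, at least 3.71-fold higher, and FN1, fibronectin, was at 14.14 and 16.48, 5.04-fold higher. THBS1, thrombospondin 1, went the other way at 15.01 and 11.04, 15.8-fold lower. LUM and DCN are also 2 of 9 theca and stromal markers. The mean log2 value of those 9 was 6.90 on the control and 7.68 on the knockdown array, and 4 and 6 of them reached the level filter. The steroidogenic theca markers CYP17A1 and INSL3 were under the filter on both arrays, COL1A1 differed by -0.99 and PDGFRA by 0.06. The part of other cells in the matrix differences was not tested.

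Among 24 collagens and collagen-modifying enzymes, 5 were called higher, 1 lower and 18 were not called, with a median of 0.74; without 8Br-cAMP 12 higher and 0 lower were called with a median of 1.15. COL4A5, of basement membranes (1.72), the lysyl hydroxylases PLOD2 (1.26) and PLOD1 (1.14), COL5A2 (1.11) and COL6A1 (1.02) were higher, and the prolyl hydroxylase subunit P4HA2 was lower (-1.77). Of 10 laminins and nidogens, 2 were called higher, 1 lower and 7 were not called; the paired basement membrane linkers NID2 (1.74) and NID1 (-1.92) differed in opposite directions. Of 23 metalloproteases and inhibitors, 2 were called higher, 4 lower and 17 were not called. The collagenolytic MMP14 (1.76) and MMP2 (1.33), which MMP14 activates, were higher, whereas the membrane protease ADAM12 (14.10 and 11.02), the inhibitor TIMP3 (-2.24) and ADAMTS12 (-1.44) were lower. The median of that list, -0.28, became 0.09 after centring on the positive controls.

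Of 11 intermediate filament genes, 0 were called higher, 2 lower and 9 were not called. KRT18, a keratin of simple epithelia, was at 15.92 on the control array and 11.22 on the knockdown array, and 16.40 in siNC and 12.38 in siYT, 26.1-fold lower in stimulated cells. Its usual partner KRT8 differed by -0.31 and vimentin, VIM, by -0.04. The other called gene was LMNB1 (-3.79), a nuclear lamin. Of 20 junction genes, 3 were called higher, 4 lower and 13 were not called, and the median of 0.00 turned its sign under quantile normalization and cyclic loess. The mesenchymal cadherin CDH11 (13.16 and 15.64) and the desmosomal PKP2 (1.81) were higher with GJA1, and the tight junction protein CLDN11 (14.42 and 11.49), the nectin NECTIN3 (-1.17) and the desmoglein DSG2 (-1.08) lower.

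Growth factor pathways were mixed. Among 28 TGF-beta, activin and BMP genes, 5 were called higher, 6 lower and 17 were not called; the median of -0.10 became 0.28 after centring on the positive controls. The ligands TGFB3 and BMP6 stood out. TGFB3 was at 6.43 on the control array and 10.60 on the knockdown array, and 3.54 in siNC and 4.69 in siYT. BMP6 was at 6.41 on the control array and 10.36 on the knockdown array, and 4.71 in siNC and 7.19 in siYT. Each was highest on the stimulated knockdown array, TGFB3 at least 16.8-fold higher and BMP6 at least 14.2-fold higher than in the stimulated control. LTBP1, which stores latent TGF-beta in matrix, differed by 2.42. On the receiving side the BMP receptor BMPR1B (1.25) was higher, and TGFBR1 (-1.86), the signal transducer SMAD3 (-1.63), the inhibitor SMAD6 (-1.27) and the BMP target ID1 (-1.04) were lower, as was FSTL3 (-2.48), an activin antagonist like FST. Of 32 Wnt and Notch genes, 5 were called higher, 3 lower and 24 were not called; DKK1, a secreted Wnt antagonist, was at 13.90 on the control array and 11.11 on the knockdown array, WNT4 differed by -1.88, and the Notch targets HEY1 (1.90) and HES1 (1.23) and the Wnt modulators SFRP4 (1.60) and SFRP1 (1.22) were higher.

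Of 16 genes of ERK feedback, 0 were called higher, 3 lower and 13 were not called, and 1 had a difference above 0, with a median of -0.45 against 0.02 without 8Br-cAMP. The phosphatases DUSP7 (6.48 and 4.65) and DUSP6 (7.57 and 6.50) and the adaptor SPRY2 (8.46 and 6.64) were lower. In the unstimulated pair they differed by 0.03, 0.00 and 0.05. All 3 knockdown values lay within the range of the negative controls, as did the control value of DUSP7. SPRY2 was at least 2.80-fold and DUSP6 at least 1.51-fold lower, and DUSP7 has no bound. With low values raised to the negative control percentile, 1 of the list was called lower and the median was -0.25. Of 11 AP-1 subunits, 1 was called higher, 2 lower and 8 were not called: FOSL1 (-2.08) and JUN (-1.51) were lower and JUND (1.89) higher. Of 11 EGF family genes, the receptor ERBB3 (-1.35) was called lower and ERBB4 (1.79) higher, both with their higher value close to the level filter, and EGFR differed by -0.10. In the IGF system 2 of 16 were lower, IGFBP3 and STC2, an inhibitor of IGF binding protein cleavage (13.44 and 10.52). Among 22 angiogenic factors, 1 was called higher, 3 lower and 18 were not called; besides EDN2 the semaphorin and VEGF coreceptor NRP2 (-2.11) and EDN1 (-2.06) were lower, PDGFD was higher (4.60 and 7.83), and VEGFA differed by -0.50.

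Metabolic and stress genes separated by pathway. Of 25 ATF4 and unfolded protein response genes, 1 was called higher, 11 lower and 13 were not called, with a median of -0.77 against -0.20 without 8Br-cAMP. ASNS, asparagine synthetase, was at 12.67 on the control array and 8.63 on the knockdown array, and 14.002 in siNC and 12.16 in siYT, 16.5-fold lower in stimulated cells. The serine enzymes PSAT1 (14.50 and 11.21) and PHGDH (11.98 and 9.44), the cystine carrier SLC7A11 (-2.05), the tRNA synthetase WARS1 (-1.49), and ATF4 itself (-1.24) and its partner DDIT3 (-1.14) were lower. The chaperone HSPA5 (-0.32) was not called and XBP1 (1.28), a regulator of the secretory pathway, was higher. Of 19 NRF2 and glutathione genes, 1 was called higher, 9 lower and 9 were not called. HMOX1, heme oxygenase 1, was at 10.95 on the control array and 4.86 on the knockdown array, and 12.13 in siNC and 6.37 in siYT, at least 15.7-fold lower in stimulated cells. NQO1, a quinone reductase, was at 16.52 on the control array and 13.75 on the knockdown array, GCLM, of glutathione synthesis, differed by -2.01 and TXNRD1, thioredoxin reductase, by -1.96. GCLC (-0.20) and GPX4 (0.00) were not called.

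Of 23 glycolysis and hypoxia genes, 1 was called higher, 3 lower and 19 were not called. ADM, the vasodilator adrenomedullin, was at 9.49 on the control array and 4.63 on the knockdown array, and 9.44 in siNC and 7.99 in siYT. The glucose transporters SLC2A1 (11.29 and 8.21) and SLC2A3 (14.86 and 12.94) were lower; without 8Br-cAMP they differed by -0.75 and 0.28. The enzymes themselves differed little: GAPDH by -0.14, LDHA by -0.16 and PGK1 by 0.46, with PFKL (1.14), the liver type of phosphofructokinase, called higher. Of 21 oxidative phosphorylation subunits, 16 had a difference above 0 and 2 were called higher, NDUFA1 (1.22) and COX7B (1.12), with a median of 0.42 against -0.26 without 8Br-cAMP. The ribosomal protein list had a median of -0.76, with all 9 below 0 and RPS6 called (-1.09). Under centring on the positive controls the ribosomal median was -0.38 and the respiratory median 0.80.

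Lysosomal genes were mostly higher. Of 21 members, 12 were called higher, 0 lower and 9 were not called, with a median of 1.05; without 8Br-cAMP 15 higher and 0 lower were called, and 11 were called higher in both. The cysteine protease CTSS was at 6.59 on the control array and 9.11 on the knockdown array, and 5.54 in siNC and 8.89 in siYT. CTSL was at 13.09 on the control array and 15.02 on the knockdown array, and TPP1, a peptidase, at 9.85 and 11.66. PSAP, which makes the saposins (1.38), and LAMP2 (1.21), a lysosomal membrane protein, were higher, while TFEB, the regulator of lysosomal genes, stood under the filter at 3.36 and 3.06. CD68, a lysosomal glycoprotein used as a macrophage marker, was at 10.33 on the control array and 13.15 on the knockdown array, whereas the immune markers PTPRC, CD14, CD163 and CSF1R were under the level filter on both arrays. Of 22 genes of the BCL2 family and death receptors, 5 were called higher, 6 lower and 11 were not called. FAIM2, which blocks Fas-induced death, was at 6.24 on the control array and 11.49 on the knockdown array, and 4.17 in siNC and 11.13 in siYT. Its deposited difference was the highest of all called genes, and it was at least 31-fold higher. BCL2L11, the pro-apoptotic BIM, differed by 1.51 and TNFRSF21 by 1.65, while BID (-2.41), BCL2L1 (-1.46) and PMAIP1 (-1.41) were lower, so that members promoting and opposing death occurred on both sides. The median of that list, -0.25, became 0.12 after centring on the positive controls.

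**Figure D3:**
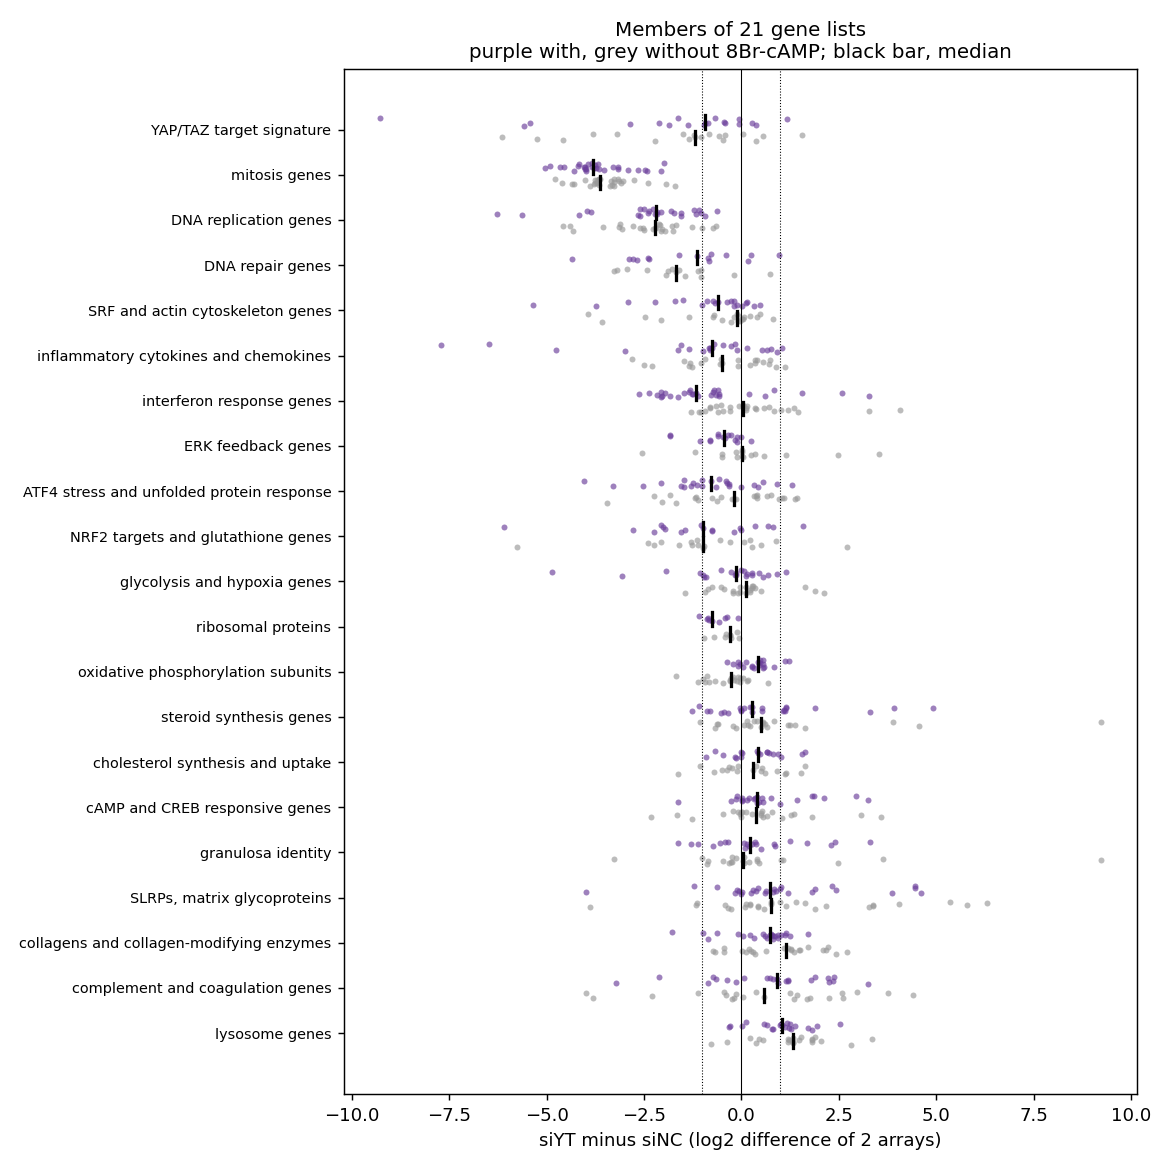
Differences of the members of 21 gene lists (horizontal axis, siYT minus siNC, log2 difference of 2 arrays), 1 point per gene; purple points are the stimulated pair, grey points the unstimulated pair, black bars the list medians and dotted lines -1 and 1. The mitosis list lies farthest to the left with 8Br-cAMP, with a median of -3.80, and the lysosome list farthest to the right, with a median of 1.05. Centring on the positive controls moves all medians to the right and turns the sign of the small glycolysis median (-0.13).

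The remaining highest genes belonged to no shared list. GREB1, a hormone-responsive growth gene, was at 3.21 on the control array and 7.50 on the knockdown array, and 3.09 in siNC and 3.52 in siYT. RAP1GAP, which switches off the GTPase Rap1, was at 5.52 on the control array and 9.27 on the knockdown array, and 4.29 in siNC and 4.12 in siYT. ACTBL2, an actin-like gene, was at 7.29 on the control array and 10.90 on the knockdown array, and 4.72 in siNC and 4.49 in siYT. All 3 were highest on the stimulated knockdown array. The control values of GREB1 and RAP1GAP lay within the range of the negative controls, so GREB1 was at least 1.95-fold and RAP1GAP at least 6.67-fold higher. CTNNA2 (3.81), an alpha catenin, TMOD1 (3.79), which caps actin filaments, KIF5C (3.66), a kinesin, SEMA3A (3.30), a guidance semaphorin, and UST (3.29), a sulfotransferase, completed the 20 highest. Bounded in the same way, CTNNA2 was at least 3.91-fold and KIF5C at least 4.48-fold higher. FAM111B (-4.78), a protease, was among the 20 lowest.

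The unstimulated pair shares no array with the stimulated pair, so it shows how far the differences recur. Of the 977 genes called higher with 8Br-cAMP, 574 (58.8%) were also called higher without it, 898 (91.9%) had a difference of the same sign, and 8 were called the opposite way. Of the 1051 called lower, 642 (61.1%) were called lower, 962 (91.5%) had the same sign and 10 were called the opposite way. Without 8Br-cAMP, 7.6% of all genes were called higher and 7.32% lower. Among genes past the level filter with 8Br-cAMP, the difference without it was above 0 in 52.3% and below 0 in 47.7%. Across the 9007 genes past the level filter in both pairs the differences correlated with r = 0.756 and rho = 0.680, across genes, which are not independent replicates. The largest gaps between the media were found in few genes, and no gap was tested. A gap is given as the difference with 8Br-cAMP minus that without; among all genes 1484 (8.39%) had one of at least 1 in size and the highest of their 4 values at or above the filter. CYP19A1 had -5.93, from 9.23 to 3.29; its stimulated control value of 14.26 stood near the unstimulated knockdown value of 14.26. Among genes called with 8Br-cAMP, gaps of that sign were also found in IL6 (-5.21), TRIB2 (-4.84), EDN2 (-4.19), CCL20 (-3.67) and ADM (-3.40). In IL6, 8Br-cAMP went with a value 2.78 higher after siNC and a difference of -2.44 after siYT; in EDN2 the same 2 values were 4.31 and 0.12, and in ADM 0.05 and -3.35. Of the other sign were MYO10, an unconventional myosin of filopodia (4.18), RAP1GAP (3.91), GREB1 (3.86), ACTBL2 (3.84), CPM, a carboxypeptidase (3.79), and KCNJ8, a potassium channel (3.74). ADAMTS1, which was not called with 8Br-cAMP, had a gap of 4.72, from -5.49 to -0.77. Apart from IL6, MYO10 and ADAMTS1, each of the genes with these gaps had at least 1 of its 4 values under the negative control percentile of the array, so the sizes and the order of the gaps are not settled. In RAP1GAP 8Br-cAMP went with 1.24 after siNC and 5.15 after siYT, and in TGFB3 with 2.89 and 5.92. These comparisons of the medium share arrays with the knockdown differences and are given as values only.

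**Figure D4:**
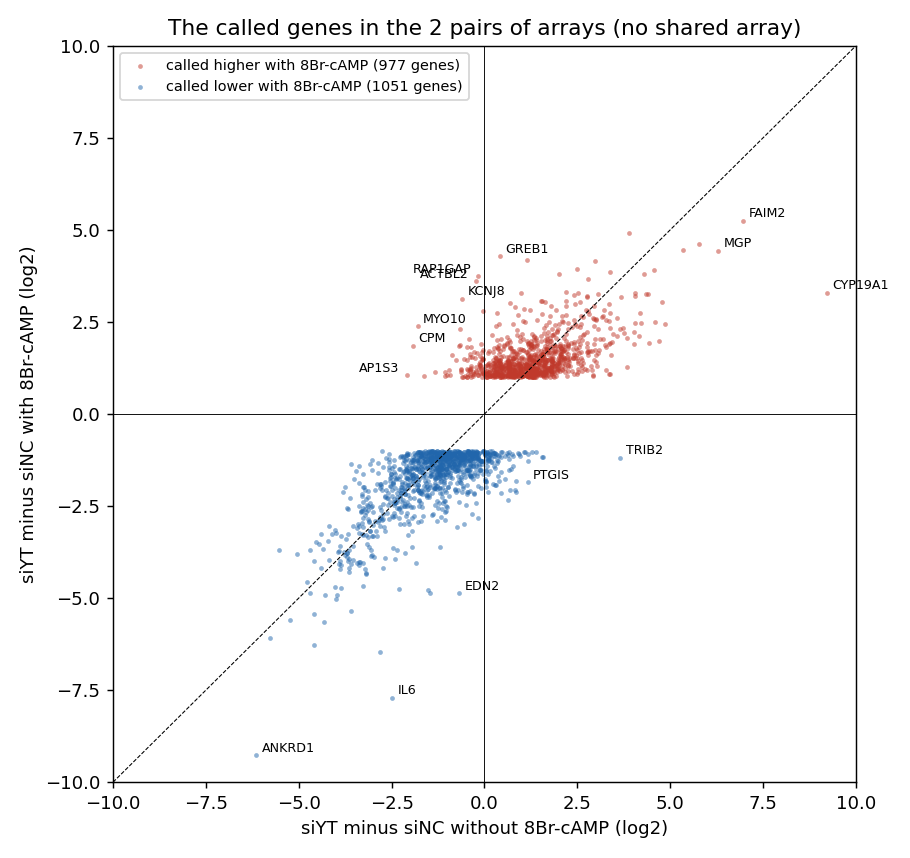
Difference with 8Br-cAMP (vertical axis, log2) against the difference without it (horizontal axis, log2) for the 2028 called genes, which the call keeps off the band between -1 and 1; the dashed line marks equal differences. Most points lie in the upper right and lower left, with 18 genes called in opposite directions, such as MYO10 and TRIB2, and CYP19A1 far to the right at 9.23 and 3.29.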

How the data were processed

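Total RNA of 4 KGN cultures was isolated with a spin-column kit and DNase treatment, labelled with biotin and hybridised to Clariom S Human arrays, per the labels. The authors deposited log2 values made by RMA, run in Affymetrix's Expression Console according to the labels; versions and the annotation build are not given in the sources used here. RMA forces the arrays onto a shared distribution, which can hide a shift common to most genes. Values ran from 1.39 to 19.36, above the 16 bits of a scanner, so a further rescaling is possible and a fold computed from them need not be a ratio of signals.

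Probe sets naming exactly 1 gene were kept, and the 42 probe sets of 20 genes were averaged per gene. The knockdown difference was taken between 2 arrays with no test, since each group had 1 array and the number of arrays limits the precision. A gene was called at a difference of at least 1 with the higher value at or above 6.22. Files were handled with Python 3.11.15, pandas 2.3.3 and numpy 2.4.6, and cyclic loess came from limma 3.58.1 in R 4.3.3; the scripts were tested on simulated data. The 47 gene lists overlap and were, like the genes compared, chosen with earlier results of these data known. Named genes were YAP1 and WWTR1, the 20 highest and 20 lowest called genes, up to 6 called members of each list by size, defining members not called, the 10 highest and 10 lowest by the gap between media among called genes, and genes called in opposite directions; the other genes named were chosen after their values were seen. Promoters came from RefSeq. There were 11 alternative settings. The 3739 transcript clusters with no gene named and all control probe sets stayed out of the counts.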

Additional observations from a re-analysis of the deposited data

Results flagged for a closer look

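In 18 genes the 2 arrays of the stimulated pair differed one way by at least 1 and the 2 arrays of the unstimulated pair the other way. The difference between the media was not tested, and each value rests on 1 array per group. Values are the difference with 8Br-cAMP, followed in parentheses by the difference without it.

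Lower with and higher without 8Br-cAMP were 10 genes. They included PTGIS, prostacyclin synthase, at -1.85 (1.17), SMAD6, an inhibitor of BMP signalling, at -1.27 (1.17), and TRIB2, a pseudokinase, at -1.18 (3.66). HEXIM1, which holds the elongation factor P-TEFb inactive, was at -1.17 (1.59), SLC40A1, the iron exporter ferroportin, at -1.17 (1.55) and XAF1, an interferon-induced binder of XIAP, at -1.09 (1.17). Nearest to the threshold were ARL6 at -1.03 (1.07), PLEKHA6 at -1.03 (1.28), the stress-induced SESN1 at -1.03 (1.38) and PDIA4, a disulfide isomerase of the endoplasmic reticulum, at -1.02 (1.09). TRIB2 was 6.21 in siNC and 9.86 in siYT without 8Br-cAMP, and 9.21 and 8.03 in siNC+8Br-cAMP and siYT+8Br-cAMP.

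Higher with and lower without 8Br-cAMP were 8 genes. MYO10 was at 2.38 (-1.79), CPM at 1.86 (-1.93), SLC27A2, a fatty acid carrier, at 1.15 (-1.32) and HSD17B2 at 1.14 (-1.06). AP1S3, a clathrin adaptor subunit, was at 1.06 (-2.09), STXBP6 at 1.06 (-1.002), DIO2, which activates thyroid hormone, at 1.04 (-1.63) and HMGCS1 at 1.02 (-1.05). MYO10 was 9.44 in siNC and 7.65 in siYT without 8Br-cAMP, and 10.67 and 13.05 with it. For HSD17B2 every value lay under the negative control percentile of its array, and for DIO2 both unstimulated values did (6.54 and 4.91). Some values of TRIB2, SLC40A1, ARL6, PLEKHA6, CPM and STXBP6 lay under it too. The differences of these genes therefore depend on the background.

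Outside the gene-named probe sets, 256 of the 3739 transcript clusters with no gene named were called in the stimulated pair, 115 higher and 141 lower, from -4.92 to 3.15. That is 6.85% of these clusters, of which 1306 passed the level filter, against 11.5% of genes.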

How the results depend on the processing

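The knockdown calls held against most choices that were tried. The genes called higher, called lower and called the same way in both media numbered 977, 1051 and 1216. Quantile normalization gave 1006, 1007 and 1216, cyclic loess 964, 1075 and 1223, and centring each array on its median 1086, 963 and 1232. Centring on the positive control probe sets gave 1953, 567 and 1574, since it moves every difference by the same amount. A threshold of 1.5-fold gave 2047, 2077 and 2527, and one of 4-fold 149, 297 and 286. Raising low values to the negative control percentile of their array gave 808, 763 and 939. That percentile differs between the arrays, so genes under it on both take its difference of 0.44, and the sign turned in POLQ 0.44, FANCI 0.35, BRCA1 0.44, ERBB3 0.44, DUSP7 0.44, WNT4 0.44, DDIT3 0.041, IRF1 0.32, IRS1 0.44, MCM6 0.44, with the value under this setting after each name. Of the 244 named genes that were called, cyclic loess ended 2 calls, quantile normalization 9, median centring 7, positive control centring 31, raising low values to the negative control percentile 21 beside the 10 that turned, the filter at that percentile 14, log2 of the linear value plus 32 15 and the 4-fold threshold 115. Centring on the positive controls also moved members called lower from 11 to 7 of the ATF4 genes and from 2 to 0 of the steroid synthesis genes, and members called higher from 3 to 8 of the cholesterol genes, from 5 to 11 of the collagens and from 9 to 14 of the complement genes. No paired analysis was possible because each group had 1 array. Signal over background limits all values under about 7.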

Other observations

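Several gene families were gathered by symbol after their values were seen, so the counts below describe these arrays and have no test. They overlap with the lists above, which already counted members such as MT1X, MT2A and RPS6. Antigen presentation genes were higher after knockdown in stimulated cells: of 15 HLA genes, 8 were called higher and 0 lower, with a median of 1.35, and 6 were called higher without 8Br-cAMP, with a median of 0.66. HLA-DRA, a class II chain, was at 6.56 in the stimulated control and 9.62 in the stimulated knockdown, and 3.16 in siNC and 4.70 in siYT. CD74, the chaperone of class II molecules, was at 10.001 and 12.99, and 8.42 in siNC and 10.85 in siYT. HLA genes share sequence, so their probe sets may measure more than 1 of them. All 9 metallothioneins, small proteins that bind zinc and copper, were called lower, with a median of -2.13; without 8Br-cAMP 4 were, with a median of -0.78. These genes are close relatives and their probe sets may overlap in what they measure as well. MT2A was at 19.10 and 17.57, and 19.11 in siNC and 18.33 in siYT.

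Of 67 histone genes 22 were called lower and 0 higher, with a median of -0.79, and without 8Br-cAMP 34 lower, with a median of -1.08. Of 18 centromere protein genes 13 were called lower and 1 higher, with a median of -2.01. Among 9 serine and one-carbon enzymes 7 were lower in either medium, with medians of -2.50 with and -1.76 without 8Br-cAMP. All cytosolic ribosomal protein genes together, 54 in number, had 18 called lower and 0 higher with a median of -0.85, and 5 lower with a median of -0.39 without 8Br-cAMP. Mitochondrial ribosomal protein genes had medians of -0.33 and -0.62 over 74 genes. The signs of these 7 medians with 8Br-cAMP were recomputed under median centring, quantile normalization, cyclic loess and centring on the positive controls. They were kept, except that the mitochondrial ribosomal median became 0.042 under centring on the positive controls, where the histone median was -0.41 and the cytosolic ribosomal one -0.48. With low values raised to the negative control percentile, the histone median became 0.41 and that of the centromere proteins 0.23, with 3 of the latter called lower, since many of their knockdown values lay under that percentile. The HLA median became 0.44 there, the difference between the percentiles themselves, with 7 called higher.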
